A study of Mus musculus with 20 samples.

Results

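The NRF2 antioxidant genes described here are 10 genes chosen by name out of 20636 in the deposited table: Nfe2l2, Keap1, Nqo1, Gclc, Gclm, Hmox1, Txnrd1, Slc7a11, Srxn1 and Gsta4. All 10 were in the table, and all 10 reached the minimum mean level for testing. The transcripts were measured by RNA-seq of whole pancreatic ductal adenocarcinomas from 3 groups of mice with 5 tumours each. KPAT mice carried floxed alleles of both Trp53 (Trp53fl/fl) and Cdkn2A-Arf (Cdkn2A-Arf fl/fl), KAT mice the floxed Cdkn2A-Arf alleles with Trp53 not floxed, and KPT mice the floxed Trp53 alleles with Cdkn2A-Arf not floxed. All 3 groups also carried 2 copies of a tdTomato reporter behind a stop cassette (R26LSL-tdTom/LSL-tdTom). Recombination was driven by Ptf1aCreER, a Cre recombinase that is active in acinar cells after tamoxifen, so cells of other origin in the tumour keep their alleles. Mice aged 8 to 10 weeks had 5 mg of tamoxifen by gavage on each of 3 days and were then kept until they became moribund. The 5 samples of the KT genotype, which make up the rest of the 20 in the series, are not analysed here.

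NRF2, the protein of Nfe2l2, is a transcription factor that binds antioxidant response elements together with small MAF proteins. KEAP1 holds NRF2 in the cytoplasm and hands it to a CUL3 ubiquitin ligase for destruction. Oxidants and electrophiles modify cysteines of KEAP1, NRF2 then escapes degradation, and genes for glutathione synthesis, thioredoxin recycling and detoxification are transcribed. Because the pathway is controlled mainly through the stability of the protein, the level of the Nfe2l2 transcript need not follow its activity.

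Libraries held 14696138 to 26248484 recovered reads. Trp53 averaged 41.9 ± 9.53 in KPAT tumours, 125 ± 20.0 in KAT tumours and 24.3 ± 1.77 in KPT tumours (SD, n = 5 each, deposited normalised units), so the tumours with floxed Trp53 were the lower ones. Cdkn2a averaged 622 ± 289 in KPAT tumours, 426 ± 254 in KAT tumours and 297 ± 47.1 in KPT tumours, but a gene total may include reads outside the floxed part and so does not check the labels. Summed markers of ductal epithelium were 8532 to 11252 in KPAT tumours, 7517 to 12163 in KAT tumours and 11894 to 20864 in KPT tumours, and those of pancreatic acinar cells were 19.3 to 719 in KPAT, 79.7 to 1073 in KAT and 49.3 to 236 in KPT tumours. Each genotype has its own range of library numbers in the column headers, and a batch along those numbers could not be told apart from genotype. The labels number the tumours of a group separately without naming the mice, and the p-values measure the spread between these tumours.

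Levels are given in the deposited unit, reads divided by a factor for each library, in which 1 unit equalled 19.478 reads on average. Divided by exon length and averaged over the 15 tumours, the level was 344 ± 135 units per kb for Gsta4, 57.4 ± 29.2 for Gclc, 42.2 ± 10.96 for Nfe2l2 and 31 ± 6.59 for Txnrd1 (SD, n = 15). It was 25.2 ± 10.8 units per kb for Hmox1, 13.9 ± 3.36 for Srxn1, 13.8 ± 5.31 for Keap1 and 11.6 ± 2.41 for Gclm. Nqo1 at 4.88 ± 3.51 and Slc7a11 at 3.68 ± 2.67 units per kb came last. The ranges of mean ± SD did not overlap between Gsta4 and Gclc or between Gclm and Nqo1, and overlapped between all other neighbours in this order. Gsta4 was at the 99.2 percentile of all tested genes on this per-kb scale and Slc7a11 at the 43.2 percentile. The exon length covers every annotated transcript of a gene, which lowers the value of Slc7a11, whose annotated exons span 13922 bases. The highest tumour exceeded the lowest 20.9-fold for Nqo1 and 12.7-fold for Slc7a11, against 2.04-fold for Txnrd1 and 2.09-fold for Gclm.

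**Figure D1:**
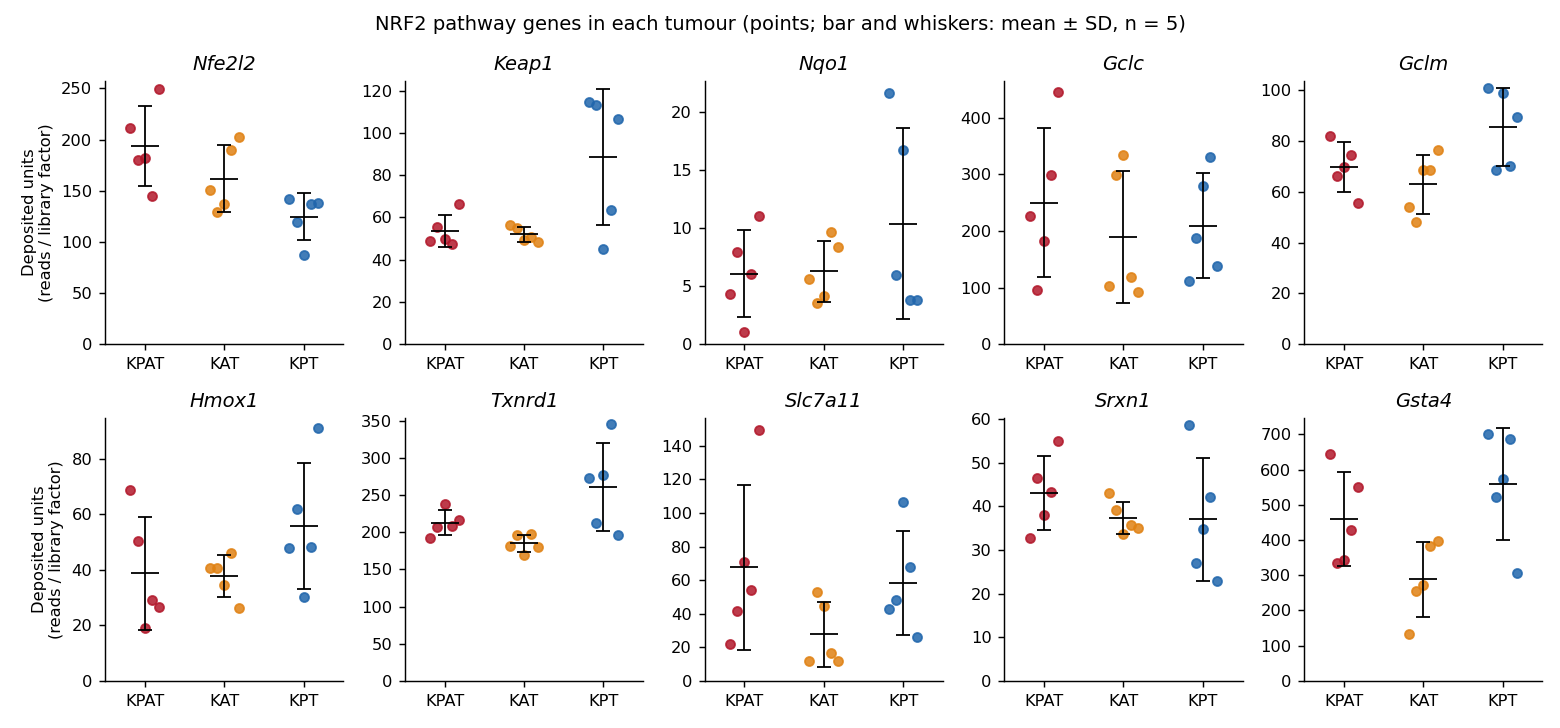
Level of each of the 10 genes in each tumour (vertical axes in deposited normalised units, starting at 0), with KPAT, KAT and KPT from left to right; points are tumours, and bars with whiskers are the group mean ± SD (n = 5). Nfe2l2 is the gene whose KPAT tumours (145 and above) all lie above the KPT tumours (142 and below), and KPT tumours 1, 2 and 5 stand high for Keap1.

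Promoter windows of 5 of the genes are shown because antioxidant response elements, the binding sites of NRF2, are usually sought there, and because these genes are 4 of the 5 called in the comparisons and the one with the most matches; Gsta4, also called, had no window. Windows run from 250 bases before to 50 bases after the transcript start, come from RefSeq (GRCm38.p6) and are read 5′ to 3′ on the strand of the gene. Of the 10 genes, 7 had a window, 9 windows in all, and Gclc and Hmox1 are, like Gsta4, named only. Capitals mark matches to TGACNNNGC, the core of the antioxidant response element, to its variant TGAGNNNGC, or to TGANTCA, the AP-1 motif, all searched on both strands.
Srxn1, chr2:152105274-152105573, plus strand: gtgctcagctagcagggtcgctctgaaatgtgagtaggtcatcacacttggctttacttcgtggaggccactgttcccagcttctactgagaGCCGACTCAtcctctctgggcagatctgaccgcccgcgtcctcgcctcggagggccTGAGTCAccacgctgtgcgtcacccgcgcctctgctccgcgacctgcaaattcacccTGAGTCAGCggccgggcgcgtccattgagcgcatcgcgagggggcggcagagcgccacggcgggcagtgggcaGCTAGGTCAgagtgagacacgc
Gclm, chr3:122245307-122245606, plus strand: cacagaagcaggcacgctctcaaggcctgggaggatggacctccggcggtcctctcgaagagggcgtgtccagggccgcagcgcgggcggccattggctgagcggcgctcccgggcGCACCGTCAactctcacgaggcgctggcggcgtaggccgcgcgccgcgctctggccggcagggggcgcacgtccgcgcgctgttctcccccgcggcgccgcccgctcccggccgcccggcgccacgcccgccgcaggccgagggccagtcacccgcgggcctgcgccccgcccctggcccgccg
Txnrd1, second of 3 windows, chr10:82858956-82859255, plus strand: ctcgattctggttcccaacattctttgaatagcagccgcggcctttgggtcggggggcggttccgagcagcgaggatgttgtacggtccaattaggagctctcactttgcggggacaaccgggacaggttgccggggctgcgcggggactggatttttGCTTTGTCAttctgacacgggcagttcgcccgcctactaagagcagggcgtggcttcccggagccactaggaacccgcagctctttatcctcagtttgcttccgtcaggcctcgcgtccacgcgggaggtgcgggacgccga
Nfe2l2, chr2:75704614-75704913, minus strand: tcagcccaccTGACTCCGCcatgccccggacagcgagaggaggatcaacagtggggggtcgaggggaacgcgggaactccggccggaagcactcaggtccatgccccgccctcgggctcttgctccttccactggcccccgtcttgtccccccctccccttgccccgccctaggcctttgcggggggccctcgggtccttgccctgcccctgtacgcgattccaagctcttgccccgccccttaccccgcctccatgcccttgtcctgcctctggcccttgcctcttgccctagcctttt
Keap1, chr9:21239283-21239582, minus strand: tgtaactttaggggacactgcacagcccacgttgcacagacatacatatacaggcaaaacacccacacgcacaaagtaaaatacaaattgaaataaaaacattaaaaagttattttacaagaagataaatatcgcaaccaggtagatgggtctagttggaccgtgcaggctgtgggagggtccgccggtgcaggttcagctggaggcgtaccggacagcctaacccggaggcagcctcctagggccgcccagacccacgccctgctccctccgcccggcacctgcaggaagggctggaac

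The Srxn1 window held 3 matches to the core and its variant, with first bases 158 and 45 bases before the start and at base 29 counted from the start as 1, and TGAGTCA at 102 and 45 bases before it; the match at 45 shares its bases with TGAGTCAGC. Gclm had GCACCGTCA at 134, the second Txnrd1 window GCTTTGTCA at 92, Nfe2l2 TGACTCCGC at 240 and Slc7a11 GCTTTCTCA at 97 bases before the start. The windows of Keap1 and Nqo1 and the other two of Txnrd1 held none of these letters. Of all 32851 windows of this length, 12.4% held TGACNNNGC, 17.6% TGAGNNNGC, 27.8% either and 7.81% TGANTCA, so a single match is common.

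Set against KPT tumours, KPAT tumours had 1 of the 10 genes higher, Nfe2l2, and none lower, at an adjusted p under 0.05 (limma, two-sided, Benjamini-Hochberg over 16648 genes). Of all genes tested, 16.5% were called in this comparison, 9.13% higher and 7.4% lower, so 1 of 10 is near the background. KAT tumours had 4 of the 10 lower than KPT tumours, Keap1, Gclm, Txnrd1 and Gsta4, and none higher, where 28.9% of all genes were called and 13.3% were lower. Groups did not overlap for 1 of the 10 genes in KPAT against KPT, where that held for 9.97% of all genes, and overlapped for each of the 10 in KAT against KPT and in KPAT against KAT, where 17.6% and 2.72% of all genes did not overlap. The median log2 fold change of the 10 genes was -0.27 for KPAT against KPT and -0.46 for KAT against KPT, and the medians over all tested genes were 0.02 and 0.03. Both comparisons share the 5 KPT tumours. Between KPAT and KAT none of the 10 genes was called by limma, edgeR or DESeq2, where limma called 0.0481% of all genes. At an unadjusted p under 0.05 (limma), 2 of the 10 passed there, Slc7a11 and Gsta4, both higher in KPAT tumours. Of all 16648 genes tested, 1798 passed at that same unadjusted level.

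**Figure D2:**
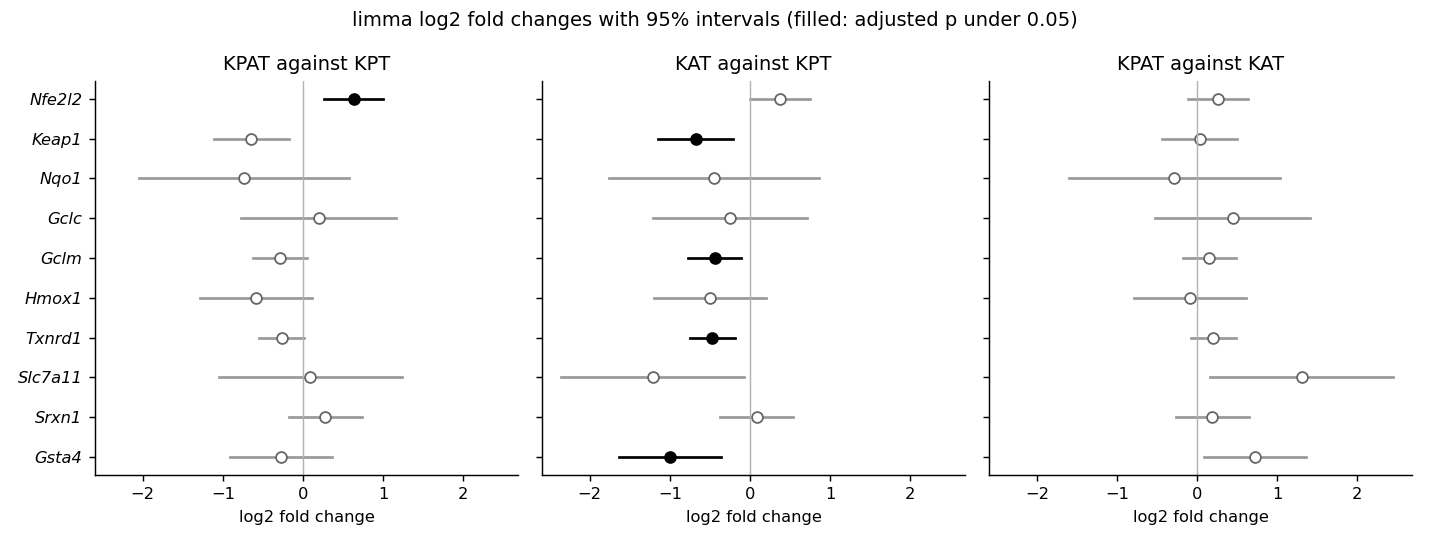
Log2 fold change of each gene (limma, horizontal axis) for KPAT against KPT, KAT against KPT and KPAT against KAT, with 95% confidence intervals; filled points passed an adjusted p of 0.05. Filled points are Nfe2l2 at 0.63 for KPAT against KPT, and Keap1, Gclm, Txnrd1 and Gsta4 between -0.996 and -0.44 for KAT against KPT.

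Nfe2l2 (ENSMUSG00000015839, GRCm38 chr2:75675513-75704641, minus strand) encodes NRF2 itself. In tumours 1 to 5 its level was 211, 180.2, 182, 145 and 249.15 in KPAT, 151, 129.6, 137, 189 and 203 in KAT, and 142, 119, 87.0, 137 and 138 in KPT. Every KPAT tumour was above every KPT tumour, a separation in that direction found in 5.03% of all tested genes, while the KAT tumours overlapped both other groups. The mean was 194 ± 38.9 in KPAT tumours and 125 ± 23.0 in KPT tumours (SD, n = 5 each), a log2 fold change of 0.63 with an SE of 0.18 and an adjusted p of 0.0246. The call was lost without KPAT tumour 5 (0.54, adjusted p = 0.0597) or without KPT tumour 3 (0.51, adjusted p = 0.0540), the highest and the lowest of the 15 tumours; over 29 alternative settings the adjusted p was 0.00767 to 0.0960. KAT tumours averaged 162 ± 32.5, with a log2 fold change of 0.37 against KPT (adjusted p = 0.120), and KPAT against KAT gave 0.26 (adjusted p = 0.617).

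Keap1 (ENSMUSG00000003308, GRCm38 chr9:21229730-21239361, minus strand) encodes the inhibitor of NRF2. Its level was 48.7, 55.6, 49.9, 47.4 and 66.2 in KPAT tumours 1 to 5, 56.4, 55.1, 49.5, 50.96 and 48.3 in KAT tumours, and 115, 113, 45.2, 63.6 and 106 in KPT tumours. KPT tumours 1, 2 and 5 were the 3 highest of all 15, and KPT tumour 3 was the lowest, so the KPT group overlapped both others. KAT tumours averaged 52.0 ± 3.52 and KPT tumours 88.7 ± 32.1 (SD, n = 5 each), a log2 fold change of -0.68 with an SE of 0.22 and an adjusted p of 0.0316. KPAT tumours averaged 53.6 ± 7.71, a log2 fold change of -0.65 against KPT with the same SE and an adjusted p of 0.0565, which just missed the threshold. Without KPT tumour 3 that comparison gave -0.87 (adjusted p = 0.0069), and edgeR and DESeq2 also called Keap1 lower in KPAT tumours, with adjusted p of 0.0303 and 0.00868; over the 29 settings it was 0.00690 to 0.149. The KAT against KPT call was lost in 8 of the 29 settings. It was lost when KPT tumour 1, 2 or 5 or KAT tumour 3, 4 or 5 was left out. Fitting only the 2 groups compared (adjusted p = 0.0629), or leaving out KPT 1 and KAT 1 together, also lost it. Over the 29 settings its adjusted p reached 0.0950. Reads of Keap1 cannot be told from those of Gm16754, which overlaps 10.9% of its exon length on the opposite strand, since the treatment of strand in counting is not given. KPAT and KAT tumours differed by 0.03 on the log2 scale (adjusted p = 0.973).

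The rate-limiting step of glutathione synthesis is carried by glutamate-cysteine ligase, with the catalytic subunit Gclc and the modifier subunit Gclm, and Slc7a11 is the cystine importer that supplies its cysteine. Gclc (ENSMUSG00000032350, GRCm38 chr9:77754535-77794485, plus strand) was at 227, 95.8, 182, 298 and 446 in KPAT tumours 1 to 5, 104, 298, 335, 119 and 91.6 in KAT tumours and 112, 187, 279.7, 331 and 137 in KPT tumours. Each group spanned low and high tumours, and the groups overlapped almost entirely. Its log2 fold change was 0.20 for KPAT against KPT (adjusted p = 0.803), -0.25 for KAT against KPT (adjusted p = 0.708) and 0.44 for KPAT against KAT (adjusted p = 0.754).

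Gclm (ENSMUSG00000028124, GRCm38 chr3:122245557-122270732, plus strand) was at 82.1, 66.1, 69.9, 74.5 and 55.7 in KPAT tumours, 53.8, 48.1, 68.5, 68.4 and 76.2 in KAT tumours and 101, 68.4, 98.7, 70.0 and 89.5 in KPT tumours. KPT tumours 1, 3 and 5 were the 3 highest, and the groups overlapped. KAT tumours averaged 63.0 ± 11.6 and KPT tumours 85.5 ± 15.4 (SD, n = 5 each), a log2 fold change of -0.44 with an SE of 0.16 and an adjusted p of 0.0466. This call lies at the threshold: it was lost in 18 of the 29 alternative settings, where the adjusted p ran from 0.0272 to 0.192 over all 29. KPAT tumours averaged 69.6 ± 9.84, with a log2 fold change of -0.29 against KPT (adjusted p = 0.219) and 0.15 against KAT (adjusted p = 0.755). Gm17494 overlaps 4.71% of the Gclm exon length on the opposite strand and Gm6061 3.88% on the same strand, and their reads cannot be told from those of Gclm.

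Slc7a11 (ENSMUSG00000027737, GRCm38 chr3:49892526-50443614, minus strand) was at 22.2, 41.6, 70.8, 54.2 and 149.6 in KPAT tumours, 12.1, 52.7, 44.8, 16.9 and 11.8 in KAT tumours and 42.6, 47.9, 107, 67.9 and 26.1 in KPT tumours. KAT tumours 1, 4 and 5 were the 3 lowest of all 15, KPAT tumour 5 was the highest, and KAT tumours 2 and 3 lay among the other groups. KAT against KPT gave a log2 fold change of -1.21 with an SE of 0.54 (adjusted p = 0.101, limma). KPAT against KAT gave 1.31 with a 95% interval of 0.17 to 2.45 (adjusted p = 0.403, limma). Over the 29 settings (limma, edgeR or DESeq2) the adjusted p of this comparison was 0.0661 to 0.783, so none called it. The KAT against KPT difference was called without KAT tumour 2 (-1.52, adjusted p = 0.0473) and with libraries weighted by their fit (-1.60, adjusted p = 0.0168), but in none of the others of the 29 settings, whose adjusted p reached 0.225. KPAT against KPT was 0.09 (adjusted p = 0.927).

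Txnrd1 (ENSMUSG00000020250, GRCm38 chr10:82833951-82897712, plus strand), the cytosolic thioredoxin reductase, was at 193, 208, 238.3, 209 and 217 in KPAT tumours, 181, 196, 169.6, 198 and 180.2 in KAT tumours and 273, 212, 278, 345 and 196 in KPT tumours. KAT tumour 4 reached just above KPT tumour 5, and all other KAT tumours lay below every KPT tumour. KAT tumours averaged 185 ± 11.9 and KPT tumours 261 ± 59.4 (SD, n = 5 each), a log2 fold change of -0.47 with an SE of 0.13 and an adjusted p of 0.0171. The call was lost with quantile scaling (adjusted p = 0.0769), without KPT 1 and KAT 1 together (0.0615) and without KPT 3, KAT 2 and KPAT 5 together (0.0548). KPAT tumours averaged 213 ± 16.6, with a log2 fold change of -0.27 against KPT (adjusted p = 0.179) and 0.20 against KAT (adjusted p = 0.601).

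Srxn1 (ENSMUSG00000032802, GRCm38 chr2:152105516-152111376, plus strand) encodes sulfiredoxin, which repairs hyperoxidised peroxiredoxins. It was at 32.8, 46.6, 37.9, 43.4 and 55.0 in KPAT tumours, 43.0, 39.2, 33.7, 35.8 and 34.9 in KAT tumours and 58.5, 26.9, 34.7, 42.1 and 22.9 in KPT tumours. The KPT tumours held both the highest and the lowest values of all 15. The log2 fold change was 0.28 for KPAT against KPT (adjusted p = 0.395), 0.09 for KAT against KPT (adjusted p = 0.790) and 0.19 for KPAT against KAT (adjusted p = 0.780).

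Nqo1 (ENSMUSG00000003849, GRCm38 chr8:107388225-107403206, minus strand), a quinone reductase widely used as a readout of NRF2, had between 19 and 431 reads per library. It was at 4.34, 7.93, 1.04, 6.04 and 11.1 in KPAT tumours, 5.58, 3.51, 4.18, 9.62 and 8.40 in KAT tumours and 21.6, 5.95, 16.7, 3.83 and 3.83 in KPT tumours. KPT tumours 1 and 3 were the 2 highest of all 15, the other KPT tumours lay inside the ranges of both other groups, and KPAT tumour 3 was the lowest. The log2 fold change was -0.73 for KPAT against KPT (adjusted p = 0.439), -0.45 for KAT against KPT (adjusted p = 0.613) and -0.29 for KPAT against KAT (adjusted p = 0.901).

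Hmox1 (ENSMUSG00000005413, GRCm38 chr8:75093621-75100589, plus strand) encodes haem oxygenase 1, which macrophages also express. It was at 68.8, 50.4, 19.2, 29.1 and 26.6 in KPAT tumours, 40.8, 40.7, 34.7, 46.1 and 26.4 in KAT tumours and 47.8, 62.0, 30.3, 48.3 and 91.2 in KPT tumours. The groups overlapped, with the highest value in KPT tumour 5 and the lowest in KPAT tumour 3. The log2 fold change was -0.59 for KPAT against KPT (adjusted p = 0.235), -0.50 for KAT against KPT (adjusted p = 0.268) and -0.09 for KPAT against KAT (adjusted p = 0.944). Beside it, 7 of 16 macrophage markers were higher in KPAT than in KPT tumours and 13 of 16 in KAT than in KPT tumours. Of all genes, 9.13% and 15.6% were higher in these comparisons. The summed level of the macrophage markers was 984 to 2045 in KPAT, 1801 to 3313 in KAT and 662 to 1198 in KPT tumours. The part of macrophages in the Hmox1 values was not tested.

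Gsta4 (ENSMUSG00000032348, GRCm38 chr9:78182774-78209349, plus strand), a glutathione transferase that conjugates the lipid peroxidation product hydroxynonenal, was the gene with the highest level per kb. It was at 643.5, 335, 342, 427 and 549 in KPAT tumours, 133, 255, 272, 382 and 397 in KAT tumours and 701, 523, 573, 687 and 307 in KPT tumours. KAT tumours 1, 2 and 3 were the 3 lowest of all 15, KPT tumours 1 and 4 were the 2 highest, and KPT tumour 5 lay inside the KAT range. KAT tumours averaged 288 ± 107 and KPT tumours 558 ± 159 (SD, n = 5 each), a log2 fold change of -0.996 with an SE of 0.30 and an adjusted p of 0.0226. The call was lost in 5 of the 29 settings, over which the adjusted p was 0.00620 to 0.103. It was lost without KPT tumour 1 (adjusted p = 0.0545), with quantile scaling (0.054) and with array weights (0.0572). Leaving out KPT 1 and KAT 1 together (0.103), or KPT 3, KAT 2 and KPAT 5 together (0.0754), also lost it. KPAT tumours averaged 459 ± 134, with a log2 fold change of -0.27 against KPT (adjusted p = 0.566) and of 0.72 against KAT with a 95% interval of 0.09 to 1.36 (adjusted p = 0.403).

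The tumours differ in their makeup, and in whole tissue fewer cells of a type and less RNA per cell cannot be told apart. Beside the 4 genes that were lower in KAT than in KPT tumours, 6 of 12 ductal epithelium markers were lower and none higher. Of all genes, 13.3% were lower and 15.6% higher there. In the same comparison 10 of 10 fibroblast markers were higher, with a summed level of 6786 to 9832 in KAT tumours and 1003 to 4202 in KPT tumours. Beside the higher Nfe2l2 in KPAT than in KPT tumours, 7 of 10 fibroblast markers were higher, with a summed level of 5335 to 14185 in KPAT tumours. In that comparison 9.13% of all genes were higher. Intestine markers summed to 429 to 1350 in KPAT, 404 to 2881 in KAT and 1139 to 5821 in KPT tumours. No marker of these lists was at 0 in all tumours. The part of these cell types in the NRF2 gene results was not tested.

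**Figure D3:**
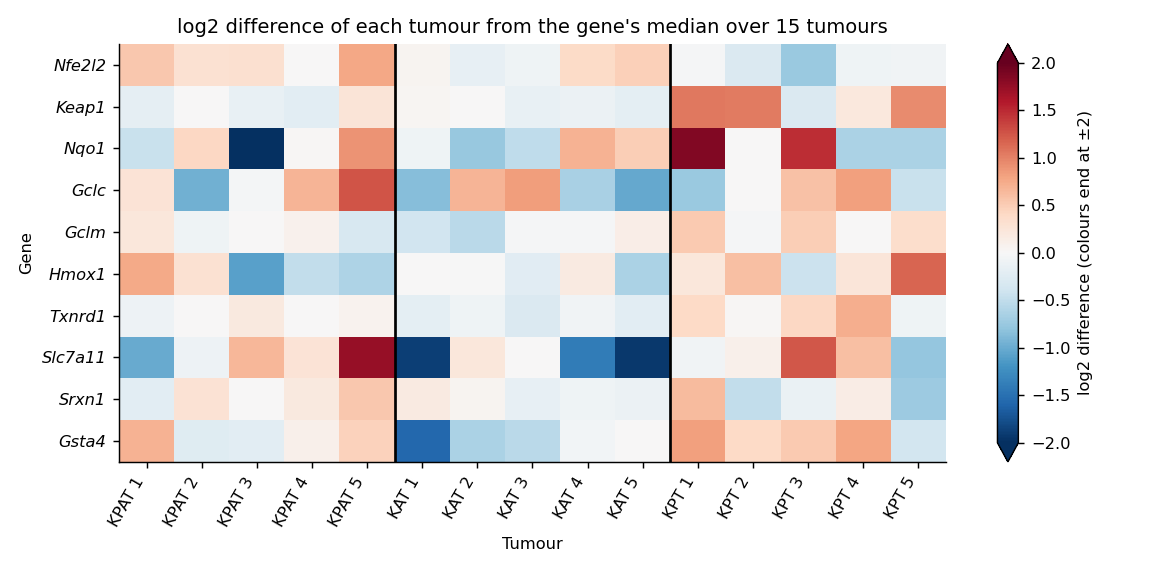
Log2 difference of each gene in each tumour from that gene's median over the 15 tumours, with KPAT, KAT and KPT tumours from left to right; red is higher, blue is lower, and colours end at ±2. Keap1 stands at 1.06, 1.04 and 0.95 in KPT tumours 1, 2 and 5, and Gclc and Slc7a11 are both high in KPAT tumour 5 (1.25 and 1.74) and both low in KAT tumours 1, 4 and 5.

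The 10 genes did not move as one block from tumour to tumour. After the group means were removed, the 45 pairs of genes had Pearson r from -0.58 to 0.77 with a median of 0.02, and 25 were positive and 20 negative. None passed an adjusted p of 0.05 over the 45 pairs, within groups or pooled, by permutation, and 2 passed an unadjusted p of 0.05 within groups. The pair with the highest r, singled out after its value was seen, was Gclc and Slc7a11, the ligase subunit and the importer of its substrate. Within groups their r was 0.77 and rho 0.76 (permutation p = 0.005, adjusted p = 0.225). This r was 0.78 without the 2 tumours farthest from the median of Gclc after group means were removed. Pooled over the 15 tumours r was 0.74 (permutation p = 0.00127, adjusted p = 0.0572) and rho was 0.73 (permutation p = 0.00238, adjusted p = 0.106). The pooled r was 0.60 without the 2 tumours farthest from the Gclc median with group means kept. These are a different 2 and include KPAT 5. Leaving out 1 tumour at a time gave a within-group r of 0.72 (without KPAT 5) to 0.88 (without KPAT 1), and only without KPAT 1 did the adjusted p pass, at 0.0374. Nfe2l2 did not share this pattern: its within-group r was -0.32 with Gclc and -0.38 with Slc7a11, neither past its test (adjusted permutation p = 0.671 and 0.633).

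**Figure D4:**
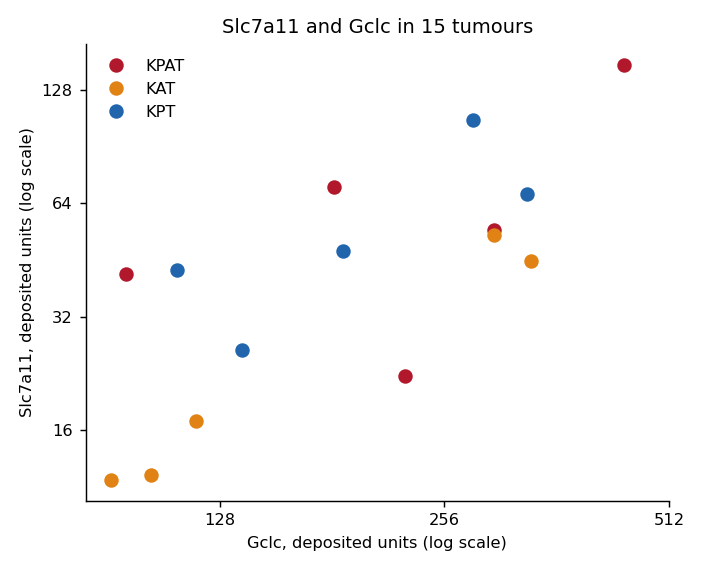
Slc7a11 against Gclc level (deposited normalised units, both axes log) in the 15 tumours, 1 point each, coloured by group in the order KPAT, KAT, KPT. KPAT tumour 5 is at the upper right (446 and 149.6), KAT tumours 1, 4 and 5 are at the lower left, and the groups overlap.

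Around the 10 genes, other parts of the pathway were read from lists of genes, whose shares called are set beside 16.5% of all genes for KPAT against KPT and 28.9% for KAT against KPT. Among 16 partners and regulators of NRF2, 1 was higher in KPAT than in KPT tumours, Syvn1, a ubiquitin ligase known to degrade NRF2, at 89.9 ± 8.21 in KPAT and 63.0 ± 4.00 in KPT (log2 fold change 0.51, adjusted p = 0.00713). In KAT tumours 1 was higher than in KPT, Nfe2l3, and 3 were lower: Maff, a small MAF protein, and both Cul3 and Rbx1, which form the ligase that KEAP1 recruits. Cul3 averaged 129 ± 23.9 in KAT and 176 ± 20.9 in KPT tumours (log2 fold change -0.46, adjusted p = 0.0152), and Rbx1 74.5 ± 6.53 in KAT and 95.8 ± 9.60 in KPT (log2 fold change -0.36, adjusted p = 0.0286). These counts are 6.25% and 25% of the list, both below the share of all genes. Rbx1 shares 4.75% of its 31-base words with a pseudogene copy, so its value is less certain.

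Of 19 other targets of NRF2, 3 were lower in KPAT than in KPT tumours and none higher, and 8 were lower in KAT than in KPT tumours and none higher. Called lower were thus 15.8% and 42.1% of the list, where 7.4% and 13.3% of all genes were lower, and the first is near the 16.5% of all genes called in either direction. The median log2 fold change of the 19 was -0.33 and -0.47 in these comparisons, and 0.20 for KPAT against KAT, where none was called. Aldh3a1, an aldehyde dehydrogenase, averaged 1.30 ± 0.54 in KAT and 21.3 ± 13.8 in KPT tumours (SD, n = 5 each; log2 fold change -3.75, SE 0.58, adjusted p = 0.000596), with no overlap, as for 8.38% of all genes in that direction. In KPAT tumours it averaged 12.8 ± 12.6, and its difference from KAT was 2.93 (adjusted p = 0.0907). Pir, which encodes pirin, averaged 24.1 ± 4.17 in KAT and 44.7 ± 11.1 in KPT tumours (log2 fold change -0.88, adjusted p = 0.00356). Akr1b8, an aldo-keto reductase, averaged 119.7 ± 27.9 in KPAT and 236 ± 99.8 in KPT tumours (log2 fold change -0.90, adjusted p = 0.0419), and shares 9.48% of its 31-base words with other genes. Osgin1 averaged 33.8 ± 9.32 in KPAT and 52.8 ± 10.2 in KPT tumours (log2 fold change -0.66, adjusted p = 0.0457). The Nfe2l2 transcript was thus called higher in KPAT than in KPT tumours where none of the 19 was, and no test set one against the other.

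Of 36 genes of glutathione use and conjugation, 1 was higher and 4 were lower in KPAT than in KPT tumours, and 4 were higher and 5 lower in KAT than in KPT tumours. At 13.9% and 25% of the list called, both counts were below the 16.5% and 28.9% of all genes. Gsr, the reductase that regenerates glutathione, averaged 166 ± 18.3 in KPAT and 258 ± 46.8 in KPT tumours (log2 fold change -0.63, adjusted p = 0.00814), and 148 ± 17.9 in KAT tumours (-0.79 against KPT, adjusted p = 0.000965). Gss, glutathione synthetase, averaged 48.8 ± 7.95 in KAT and 108 ± 29.6 in KPT tumours (log2 fold change -1.11, adjusted p = 0.00168), although it overlaps Acss2 and 2 antisense genes on the opposite strand. The 4 genes higher in KAT were Mgst1, Gpx3, Gpx7 and Gpx8, and Gpx8, a peroxidase of the endoplasmic reticulum, averaged 34.4 ± 10.2 in KPAT and 11.4 ± 3.99 in KPT tumours (log2 fold change 1.62, adjusted p = 0.00271).

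Of 15 genes of the thioredoxin and peroxiredoxin system, 1 was higher and 1 lower in KPAT than in KPT tumours, and 1 was higher and 2 were lower in KAT than in KPT tumours, 13.3% and 20% of the list, both below the share of all genes. Txnrd2, the mitochondrial thioredoxin reductase, was higher in both groups than in KPT, while Txnrd1 was lower in KAT: Txnrd2 averaged 11.6 ± 1.41 in KPAT, 11.5 ± 0.91 in KAT and 6.96 ± 1.43 in KPT tumours, with log2 fold changes of 0.74 (adjusted p = 0.00946) and 0.75 (adjusted p = 0.00455) against KPT. Of 15 enzymes that produce NADPH, none was called in KPAT against KPT, where G6pdx had -0.39 (adjusted p = 0.0814, limma), and 4 were lower in KAT than in KPT tumours, 26.7% of the list beside 28.9% of all genes. These were Tkt, Me2, Idh1 and Idh2, and Idh1 averaged 169.7 ± 36.1 in KAT and 266 ± 55.7 in KPT tumours (log2 fold change -0.65, adjusted p = 0.0128). G6pdx shares 23.6% of its 31-base words with other genes. Ikbkg also overlaps 13.6% of its exon length on the opposite strand, so the G6pdx value is less certain.

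In haem and iron handling, 10 of 11 genes were tested; 1 was higher and 2 were lower in KPAT than in KPT tumours, and 1 was higher and 1 lower in KAT than in KPT tumours. These are 30% and 20% of the tested list, beside 16.5% and 28.9% of all genes. Alas1, the first enzyme of haem synthesis, averaged 67.6 ± 5.73 in KPAT and 43.0 ± 9.15 in KPT tumours (log2 fold change 0.67, adjusted p = 0.00812). Slc40a1, the iron exporter ferroportin, averaged 38.7 ± 10.0 in KPAT and 101 ± 47.0 in KPT tumours (log2 fold change -1.33, adjusted p = 0.0186). Of the 4 genes for superoxide dismutases and catalase, 2 were higher (Cat and Sod3) and 1 was lower (Sod1) in KPAT than in KPT tumours, and 1 was higher (Sod3) and 1 lower (Sod1) in KAT than in KPT tumours. Called were 75% and 50% of this list of only 4, beside 16.5% and 28.9% of all genes. Sod1, the cytosolic dismutase, averaged 159 ± 11.6 in KPAT, 127 ± 8.19 in KAT and 322 ± 117 in KPT tumours (log2 fold change -0.95, adjusted p = 0.00547, and -1.27, adjusted p = 0.000402, against KPT). Sod3, the extracellular dismutase, averaged 70.3 ± 55.7 in KPAT, 64.8 ± 27.6 in KAT and 11.99 ± 5.72 in KPT tumours (log2 fold change 2.35, adjusted p = 0.00758, and 2.47, adjusted p = 0.00245). Alas1 and Txnrd2 overlap a gene on the opposite strand over 7.53% and 4% of their exon length, and Sod1 shares 5.34% of its 31-base words with the copy Gm8566, so these values are less certain.

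Some of the 10 genes also answer other stress pathways; Slc7a11, for example, is a known target of ATF4. Of 14 ATF4 stress genes, 4 were lower in KPAT and 6 in KAT than in KPT tumours, none was higher, and the median log2 fold changes were -0.39 and -0.55; called were 28.6% and 42.9% of the list, beside 16.5% and 28.9% of all genes. Ddit3, the stress factor CHOP, averaged 10.6 ± 1.76 in KPAT, 10.4 ± 3.07 in KAT and 32.2 ± 13.2 in KPT tumours (log2 fold change -1.48 and -1.54 against KPT). Of 16 hypoxia and glycolysis genes, 12 were lower in KPAT and 13 in KAT than in KPT tumours. These are 75% and 81.2% of the list, where 7.4% and 13.3% of all genes were lower. The summed level of the 16 was 2690 to 3603 in KPAT, 2082 to 5996 in KAT and 4018 to 8829 in KPT tumours. Their part in the NRF2 gene results was not tested.

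For each of the 10 genes, the 3 genes with the most similar levels were looked up by Pearson r over the 15 tumours among 14589 genes, as a description. For Keap1 all 3 lay beside it on chromosome 9: Ubl5 (r = 0.94, 0.596 Mb away), Smarca4 (r = 0.93, 0.377 Mb) and Elof1 (r = 0.93, 0.878 Mb), while 5.62% of tested genes are on that chromosome. Smarca4, a chromatin remodelling ATPase, was at 371, 396, 203, 265 and 364 in KPT tumours 1 to 5, and averaged 223 ± 32.7 in KPAT and 198 ± 14.6 in KAT tumours. KPT tumours 1, 2 and 5 were thus the high ones for Smarca4 as for Keap1. Of the 27 genes found for the other 9, only Slc2a10 for Nfe2l2 (89.8 Mb away) and Prelid3b for Srxn1 (22.4 Mb) were on the same chromosome as their match. The nearest for Slc7a11 were Glud1 (r = 0.94), Pik3r2 (0.92) and Lsg1 (0.91), and for Nfe2l2 Hmgn2 (0.91), Slc2a10 (0.90) and Jmjd8 (0.89).

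The neighbours of Keap1 were therefore read tumour by tumour, a step chosen after the values were seen. For the 61 tested genes within 1 Mb, the median log2 difference from each gene's own 15-tumour median was 0.24 in KPT tumour 1, 0.50 in tumour 2, -0.20 in tumour 3, 0.01 in tumour 4 and 0.54 in tumour 5. It was -0.07 to 0.06 in KPAT tumours and -0.12 to 0.00 in KAT tumours. KPT tumours 1, 2 and 5 were the highest and tumour 3 the lowest for these neighbours as for Keap1 itself, whose own differences were 1.06, 1.04, -0.28, 0.21 and 0.95. Of the 61 neighbours, 36, 51, 12, 33 and 46 were above their own median in KPT tumours 1 to 5, against 18 to 37 in KPAT tumours and 17 to 28 in KAT tumours. By this count KPT tumour 1, with 36, did not exceed KPAT tumour 5, with 37. Over the 935 tested genes of the whole chromosome the same median was -0.42, -0.09, -0.44, -0.16 and -0.25 in KPT tumours 1 to 5. It was -0.04 to 0.11 in KPAT tumours and 0.04 to 0.12 in KAT tumours. The higher levels near Keap1 thus did not extend over chromosome 9, but their reach differed between KPT tumours 1, 2 and 5. From 10 to 1 Mb before Keap1 the medians of these 3 were -0.01, 0.21 and 0.89. From 1 to 10 Mb after it they were 0.10, 0.14 and 0.27. KPAT and KAT tumours were at -0.12 to 0.08 and at -0.03 to 0.07 in these bins. In KAT against KPT 3 neighbours were higher and 17 lower (32.8% called, beside 28.9% of all genes; median log2 fold change -0.29), and in KPAT against KPT 2 were higher and 9 lower (18% called, beside 16.5% of all genes; median -0.36). Both shares in either direction are near the background, but most of the called neighbours were lower. Of all genes, 13.3% were lower in KAT against KPT and 7.4% in KPAT against KPT, beside 17 and 9 of the 61 neighbours. The part of the neighbourhood in the Keap1 result was not tested.

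**Figure D5:**
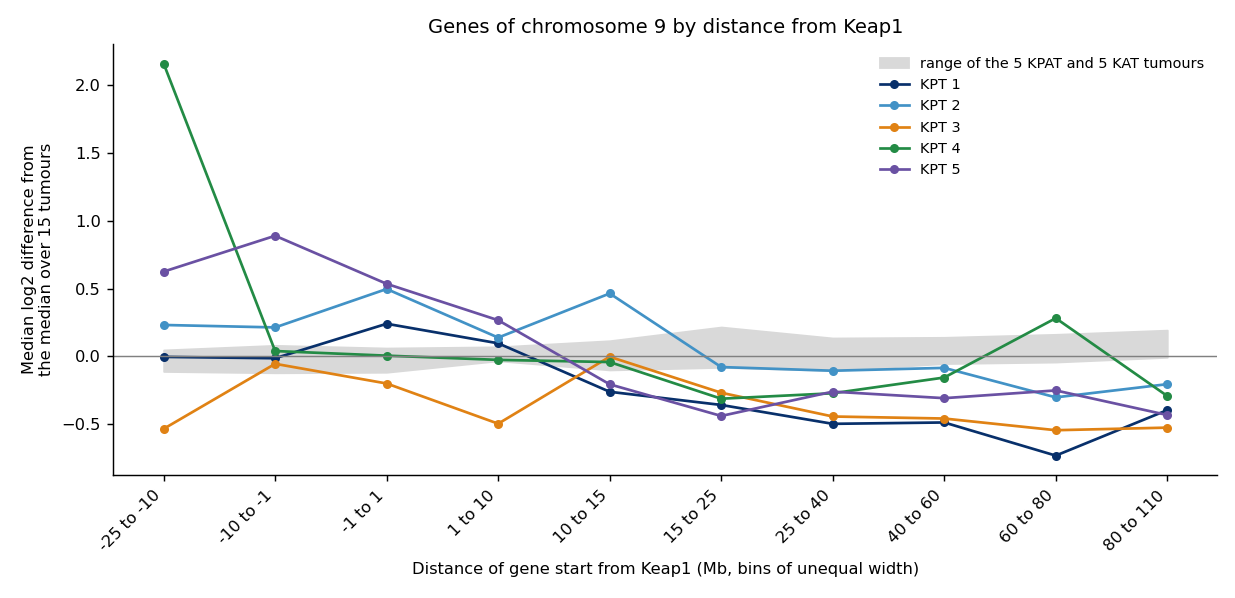
Median log2 difference from each gene's 15-tumour median for tested genes in bins of distance from Keap1 along chromosome 9 (Mb); bins are of unequal width, the grey band is the range of the 5 KPAT and 5 KAT tumours, and coloured lines are the 5 KPT tumours. Within 1 Mb KPT tumours 1, 2 and 5 are at 0.24, 0.50 and 0.54, and from 15 Mb onwards these 3 tumours are below 0 in every bin.

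Gclc and Gsta4 also lie on chromosome 9, within 1 Mb of each other, and share most of their neighbours. Both lie in the bin 40 to 60 Mb after Keap1. Over its 150 tested genes the medians were -0.49, -0.08, -0.46, -0.155 and -0.31 in KPT tumours 1 to 5. They were -0.05 to 0.125 in KPAT tumours and 0.08 to 0.14 in KAT tumours. The 18 tested neighbours of Gsta4 had medians of -0.22, 0.00, -0.08, 0.24 and -0.37 in KPT tumours 1 to 5, and -0.14 to 0.07 in KAT tumours. In KAT against KPT 2 of these neighbours were higher and 1 lower, with a median log2 fold change of 0.03, beside -0.996 for Gsta4. Called were 16.7% of them, beside 28.9% of all genes. For Txnrd1, 4 of 16 neighbours were higher and 1 was lower in KAT than in KPT tumours, with a median of 0.10, beside -0.47 for Txnrd1. The share called, 31.2%, is near the 28.9% of all genes. For Nfe2l2, 3 of 13 neighbours were higher and 1 lower in KPAT than in KPT tumours, with a median of 0.42 beside 0.63 for Nfe2l2. Called were 30.8% of these neighbours, beside 16.5% of all genes, of which 9.13% were higher and 7.4% lower. The part of these neighbourhoods in the gene results was not tested.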

How the data were processed

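RNeasy midi columns, TruSeq RNA kits and a HiSeq4000 were used, per the labels' protocols. The submitters' processing notes name HISAT2 2.0.4 and the builds mm10 and GRCm38. The way reads were counted, on which annotation and strand, and how values were normalized, is not given in the sources used here. Judged from the numbers, the authors' deposited values are a signal per gene, reads divided by a factor per library: multiplied back, 100% fell within 0.01 of a whole number.

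For testing, each value was multiplied by 19.478, the mean (geometric) number of reads in 1 unit, because the design assumed the scale of reads. Genes with a mean of at least 10 (16648) were fitted as log2(value + 1) in limma 3.58.1 (R 4.3.3), with group means over the 15 libraries and eBayes with trend. Tests were two-sided, and p-values were adjusted over all these genes (Benjamini-Hochberg) at 0.05. Fold changes are on this scale, which understates those of low genes. Alternatives were other pseudocounts, minima, scalings and sample sets, array weights, the replicate number as a block, and edgeR 4.0.16 and DESeq2 1.42.0 on the recovered reads. Code was tested on simulated data. Pairs of genes were tested with 100000 permutations, within groups or pooled, in Python 3.11.15 with scipy 1.17.1.

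The genes and lists were chosen with earlier results of these data known. The rule for names took from each list the 2 genes with the smallest p in each comparison, and for each of the 10 genes the 3 most like it that are no predicted gene or pseudogene; those the results turn on are printed. Other list members are named where few passed the test. Gene positions and exon lengths came from GENCODE M21 (GRCm38), and 20574 of 20636 IDs had a symbol. One further allele that all 3 groups share is not reported here.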

Additional observations from a re-analysis of the deposited data

How the results depend on the processing

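Each result was recomputed under 29 alternatives. Of 867 log2 fold changes of single genes, 803 kept direction and call, 37 lost a call, 11 gained one and 16 changed sign, none of which had been called; the causes were not tested. With 1 tumour left out, KPAT against KPT was -0.0573 (without KPAT 5) to 0.4973 for Gclc and -0.2644 (without KPAT 5; -0.1568 without KPT 5) to 0.4228 for Slc7a11. KAT against KPT was then -0.0666 (without KPT 5; -0.0091 without KPT 2) to 0.2707 for Srxn1. KPAT against KAT was then -0.0461 (without KPAT 5) to 0.0739 for Keap1, -0.5874 to 0.2514 (without KPAT 3) for Nqo1 and -0.3335 to 0.1256 (without KPAT 3; 0.0092 without KPAT 5) for Hmox1. Array weights turned Slc7a11 in KPAT against KPT to -0.0653 and Nqo1 in KAT against KPT to 0.002. Without KPT 3, KAT 2 and KPAT 5, Slc7a11 was at -0.0069 in KPAT against KPT, and in KPAT against KAT Keap1 was at -0.0251 and Hmox1 at 0.0429, where Hmox1 was also at 0.0338 with edgeR and 0.0364 with DESeq2. Nqo1 was not tested on the deposited scale, where its mean is under the minimum.

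Of the 10 genes, KPAT against KPT called 1, but 2 on the deposited scale, with array weights, with the replicate block, with edgeR and with DESeq2 (Keap1 added), and 0 to 2 when 1 tumour was left out; without KPT 3 Keap1 was called and Nfe2l2 was not. KAT against KPT called 4, but 1 with quantile scaling, 2 with only the 2 groups, 0 without KPT 1 and KAT 1, 1 without KPT 3, KAT 2 and KPAT 5, and 1 (without KPT 1) to 4 when 1 tumour was left out. Nfe2l2 was also called higher in KAT than in KPT tumours with array weights (0.55, adjusted p = 0.0163).

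Over all genes, KPAT against KPT called 2752, and 1832 with only the 2 groups, 1728 without KPT 3, KAT 2 and KPAT 5, 1687 (without KPAT 2) to 2895 with 1 tumour left out, 2706 with edgeR and 3861 with DESeq2. KAT against KPT called 4805 (2599 higher, 2206 lower), 3539 to 4847 with 1 tumour left out, 4684 with edgeR and 5712 with DESeq2, and on the deposited scale 1382 higher and 1908 lower. KPAT against KAT called 8, and 4 on the deposited scale, 17 with quantile scaling, 15 with only the 2 groups, 515 with array weights, 17 without KPT 3, KAT 2 and KPAT 5, 284 with DESeq2, 7 with edgeR and 7 to 45 (without KAT 2) with 1 tumour left out. Of 45 pairs none passed, and 1 without KPAT 1. With the replicate number as a block the 3 comparisons called 2248, 4313 and 7 genes. Numbers did not pair tumours: deviations of same-numbered tumours had r of -0.21 to 0.25, and the best match was the own number for 1, 2 and 0 of 5. Depth limits Nqo1 most, at 19 reads in its lowest library.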

Other observations

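KPT tumour 4, which did not share the higher levels around Keap1, had a separate stretch of high levels near the start of chromosome 9: the 31 tested genes from 25 to 10 Mb before Keap1 had a median log2 difference from their own 15-tumour medians of 2.16 there. The same bin was at 0.23 in KPT tumour 2, 0.63 in KPT tumour 5, -0.53 in KPT tumour 3, 0.00 in KPT tumour 1, and -0.11 to 0.05 in the 10 KPAT and KAT tumours. The cause was not tested.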
